A study of Homo sapiens with 6 samples.

Results

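Immediate early genes and the feedback inhibitors of the ERK mitogen-activated protein kinase pathway are described here in VCaP prostate cancer cells with and without silencing of NEDD9. The 52 members were selected by gene symbol out of 58735 genes in the deposited count table. The rule took every DUSP gene with a number, the SPRY, SPRED and EGR genes, and 17 single genes, which were FOS, FOSB, FOSL1, FOSL2, JUN, JUNB, JUND, IER2, IER3, IER5, PHLDA1, PHLDA2, KLF4, KLF6, KLF10, ZFP36 and BTG2. All 52 are protein-coding in the annotation. The rule used symbols alone, but the members were chosen with earlier results of these data known.

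VCaP is a human prostate cancer cell line with an active androgen receptor and a TMPRSS2-ERG fusion gene. The cells had been stably infected with an shRNA that targets NEDD9 (shNEDD9) or with one that is non-targeting (shNTC), and the 2 groups grew in DMEM with 10% FBS. Each group held 3 libraries of total RNA, made with a strand-marking TruSeq kit and called biological triplicates in the design text. The identity and number of the hairpins, and whether the lines were pools or single clones, are not given in the sources used here.

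As background, growth factor receptors and adhesion signals switch on RAS, RAF, MEK and ERK in turn. ERK and the other mitogen-activated protein kinases phosphorylate factors such as the ternary complex factors, which sit with SRF on the promoters of immediate early genes, and these genes are transcribed without new protein synthesis. Among their products are the EGR and AP-1 transcription factors. Others are dual-specificity phosphatases (DUSP), which remove the activating phosphates from the kinases, and Sprouty and SPRED proteins, which dampen signalling between receptor and RAF. Transcripts of several of these inhibitors are widely used as readouts of ERK output.

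The libraries held 3217276 to 9902002 counts, so that 3 counts, taken as the floor of detection, equal 0.303 to 0.932 CPM, the usual depth-normalised count. NEDD9 stood at 362, 339 and 365 CPM in shNTC replicates 1 to 3 and at 137, 138 and 136 CPM in shNEDD9 replicates 1 to 3 (log2 fold change -1.39, SE 0.04). Prostate luminal markers were abundant in every library, with a summed level of 5202 to 5247 CPM over 8 genes in shNTC and of 5916 to 5979 CPM in shNEDD9. The 6 fibroblast markers summed to 6.99 to 15.4 CPM and 5.71 to 6.49 CPM, and the 4 endothelial markers to 1.34 to 2.83 CPM and 1.61 to 2.35 CPM. The 6 immune markers summed to 18.3 to 25.1 CPM in shNTC and 5.71 to 6.66 CPM in shNEDD9. LYZ made up most of the shNTC sum (16.8 ± 2.84 against 1.5 ± 0.156 CPM, SD, n = 3 each) and CD14 most of the shNEDD9 sum, while CD3E and CD68 had 0 counts and PTPRC had 1. Their part in the results below was not tested. In bulk RNA, fewer cells that express a gene and less of its RNA per cell cannot be told apart.

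Lower levels in shNEDD9 were the more frequent direction among the tested members, and their 5 largest changes were all decreases. After the filter on low counts 38 of the 52 members were tested, and 21 of them were lower and 10 higher in shNEDD9 at an adjusted p under 0.05, while 7 were not called. So 31 members (81.6%) were called, against 71.4% of all 13958 tested genes. Of all tested genes 35.9% were lower and 35.5% higher, against 55.3% and 26.3% of the tested members. At least 2-fold decreases were seen in 15 members (39.5%, against 9.22% of all tested genes), and at least 2-fold increases in 3 (7.89%, against 7.67%). The median log2 fold change was -0.41 over the tested members and 0.00 over all tested genes. The groups did not overlap in 32 members (84.2%, against 71.8% of all tested genes). These are descriptions, since the filter favours genes that are high in at least 1 group. The choice of members was also made with earlier results of these data known. FOS and SPRED3 passed the filter through their shNTC libraries. Of the 35 members above the CPM level of the filter in all 6 libraries, 19 were lower and 10 higher.

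**Figure D1:**
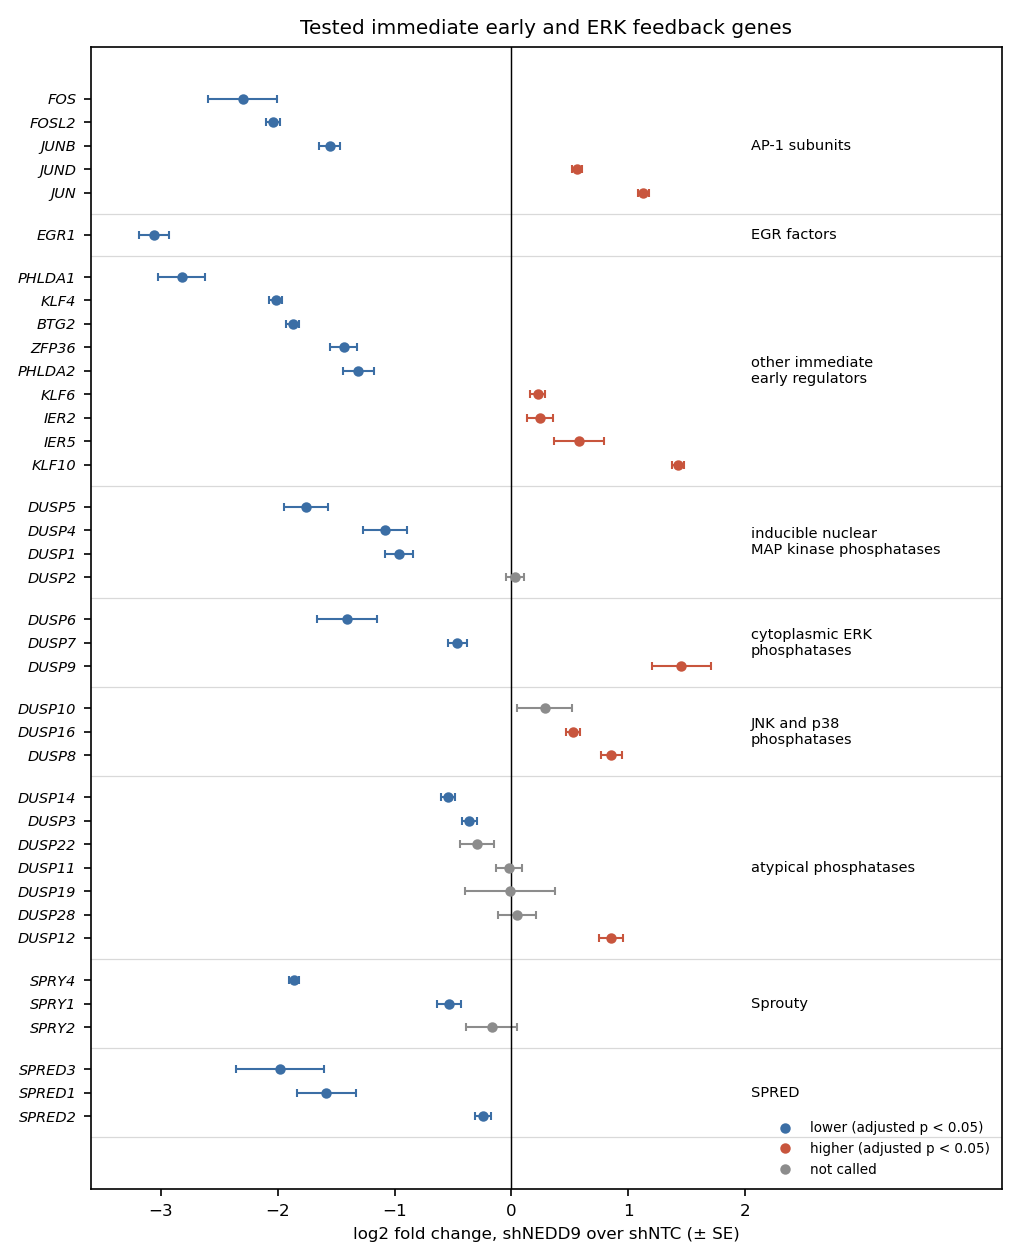
Log2 fold change of shNEDD9 over shNTC (x axis) with its standard error for the 38 tested members, ordered by role. Decreases reach -3.06 in EGR1, and increases reach 1.46 in DUSP9. Every tested SPRED gene lies among the decreases. No gene of the group labelled JNK and p38 phosphatases does, but DUSP1 and DUSP4 of the nuclear group do.

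The AP-1 transcription factor, a dimer of FOS and JUN family proteins, had its subunit genes move in opposite directions. FOSL2, FOS and JUNB fell, whereas JUN and JUND rose, and FOSL1 and FOSB had too few counts to be tested. FOSL2 (ENSG00000075426, chr2:28392448-28417312), the most abundant FOS family gene per length, stood at 148, 154 and 149 CPM in shNTC and at 35.1, 35.0 and 38.2 CPM in shNEDD9. This is a 4.12-fold decrease (log2 fold change -2.04, SE 0.06, edgeR adjusted p = 1.94e-277), and the groups lay far apart. FOS (ENSG00000170345, chr14:75278774-75282230), the founding member of the family, was scarce, at 5.92, 5.03 and 5.16 CPM in shNTC and 1.01, 0.509 and 1.61 CPM in shNEDD9. Its shNEDD9 values came from 26 counts in all, replicate 2 being the lowest and replicate 3 the highest, and stayed below every shNTC library (4.93-fold lower, log2 fold change -2.30, SE 0.30, edgeR adjusted p = 1.72e-14). JUNB, a JUN protein that often opposes JUN, read 44.0, 43.7 and 48.8 CPM against 12.9, 15.9 and 16.8 CPM, 2.94-fold lower without overlap (log2 fold change -1.56, SE 0.09, edgeR adjusted p = 1.67e-62). JUNB shares 259 exon bases with HOOK2 on the opposite strand, and the strand setting of the counting is not given in the sources used here. HOOK2 itself fell by 0.31 on the log2 scale (SE 0.07).

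JUN (ENSG00000177606, chr1:58780788-58784327), the main transactivating JUN protein, ran against these decreases. It stood at 95.3, 86.4 and 91.6 CPM in shNTC and at 203, 197 and 206 CPM in shNEDD9, a 2.19-fold increase (log2 fold change 1.13, SE 0.04, edgeR adjusted p = 8.37e-142). JUND, a JUN protein that most cells hold at a steady level, read 113, 145 and 136 CPM against 198, 193 and 179 CPM. Its shNTC replicate 1 was the lowest of the 6 libraries, and all shNEDD9 libraries lay above all shNTC libraries (log2 fold change 0.56, SE 0.04, edgeR adjusted p = 1.15e-39). Scaled by exon length, the JUN family summed to 112, 126 and 126 CPM per kilobase (kb) in shNTC and 171, 168 and 164 CPM per kb in shNEDD9. The FOS family summed to 22.8, 24.0 and 22.7 CPM per kb in shNTC and 5.54, 5.34 and 5.96 CPM per kb in shNEDD9, so the families shifted in opposite directions in each library. FOSL2 made up 90.7 ± 1.01% of the FOS family level in shNTC and 89.8 ± 1.57% in shNEDD9 (SD, n = 3 each), whereas the share of JUNB in the JUN family level was 20.7 ± 1.46% and 5.01 ± 0.765%, and that of JUN 21.3 ± 2.49% and 34.1 ± 1.25%.

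**Figure D2:**
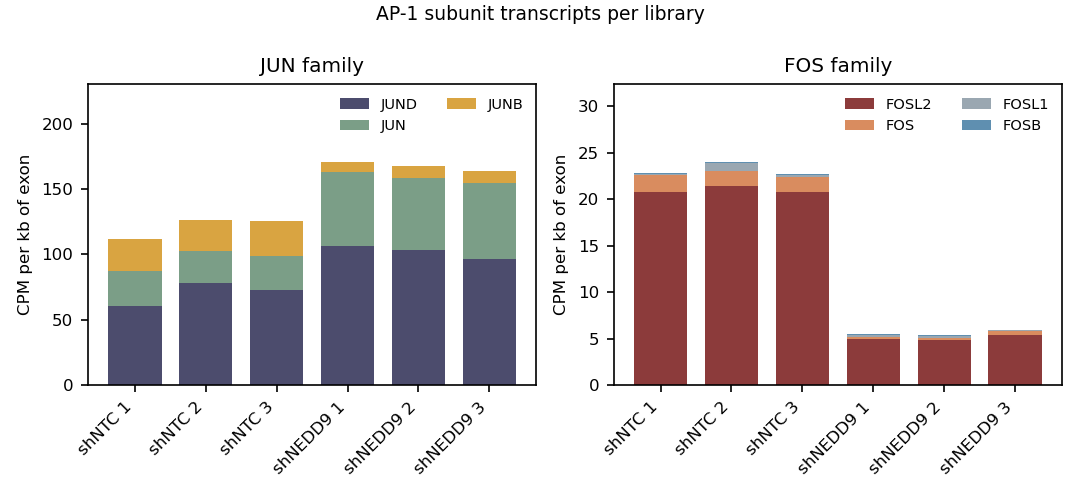
Stacked levels of the JUN family (left) and FOS family (right) transcripts in each of the 6 libraries, in CPM per kb of exon. JUN family sums lie between 112 and 126 in shNTC and between 164 and 171 in shNEDD9, while FOS family sums go from 22.7 to 24.0 down to 5.34 to 5.96.

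Promoters of the members were read from RefSeq (GRCh38.p14) as windows of 250 bases before to 50 bases after the RefSeq start, with entries for 41 of the 52 members. BTG2, EGR1, FOS and SPRY4 are among the 41, and EGR3, DUSP4, DUSP5, DUSP12, DUSP13, DUSP26, DUSP27, FOSL1, IER3, KLF10 and PHLDA2 are not. Exact matches on either strand were sought for the cyclic AMP response element TGACGTCA, for the AP-1 site TGAGTCA or TGACTCA, which is the same motif on opposite strands, and for the CArG box bound by SRF. The first was in 3 of the 41 members (7.32%, against 2.25% of 27305 genes with an entry), the AP-1 site in 4 (9.76%, against 6.05%) and the CArG box in 2 (4.88%, against 1.6%). With so few matches these shares are descriptions only. Of the 41 members, 11 had several windows, and a gene was counted if any of its windows held a match. Sites outside the windows were not sought. Among the 8 members with an entry that rose, JUND and DUSP8 held TGACGTCA, and among the 18 that fell DUSP1 did. The promoter of JUND upstream of its start (chr19:18281623-18281872, minus strand) is shown because it holds the match in a member that rose, with the match in capitals at bases -200 to -193.

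JUND: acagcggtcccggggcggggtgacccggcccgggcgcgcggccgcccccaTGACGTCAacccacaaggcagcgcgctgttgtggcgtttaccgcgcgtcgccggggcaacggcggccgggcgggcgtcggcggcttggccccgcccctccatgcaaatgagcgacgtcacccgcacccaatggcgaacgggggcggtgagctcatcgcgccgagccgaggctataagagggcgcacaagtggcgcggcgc

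EGR1, a zinc finger transcription factor induced within minutes by growth factors, had the lowest log2 fold change of all tested members. EGR1 (ENSG00000120738, chr5:138465490-138469315) stood at 38.5, 40.2 and 38.2 CPM in shNTC and at 3.86, 5.21 and 4.64 CPM in shNEDD9. The decrease was 8.33-fold (log2 fold change -3.06, SE 0.13, edgeR adjusted p = 1.30e-127), the 107th lowest value among the 13958 tested genes. Its relatives EGR2, EGR3 and EGR4 were below the filter. EGR3 had 23 counts over the shNTC libraries and 9 over the shNEDD9 libraries (ratio per total count 0.284, exact 95% interval 0.116 to 0.637, counting error only). By library these were 14, 2 and 7 counts in shNTC and 0, 2 and 7 in shNEDD9, and the groups overlapped in CPM. EGR2 had 5 and 1 counts (ratio 0.145, interval 0.00307 to 1.3). EGR4 had 5 counts in shNTC and 0 in shNEDD9, too few for a fold change.

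The EGR1 promoter is shown because EGR1 and EGR2 were the 2 members of the 41 with a CArG box in the window searched. EGR1 held 2 of them, at bases -105 to -96 and -83 to -74 from the RefSeq start (upstream window chr5:138465229-138465478, plus strand), and they are in capitals. SRF, whose protein binds this element, was at 50.1 ± 3.43 CPM in shNTC and 53.4 ± 3.11 CPM in shNEDD9 (SD, n = 3 each) and was not called (edgeR adjusted p = 0.111).

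EGR1: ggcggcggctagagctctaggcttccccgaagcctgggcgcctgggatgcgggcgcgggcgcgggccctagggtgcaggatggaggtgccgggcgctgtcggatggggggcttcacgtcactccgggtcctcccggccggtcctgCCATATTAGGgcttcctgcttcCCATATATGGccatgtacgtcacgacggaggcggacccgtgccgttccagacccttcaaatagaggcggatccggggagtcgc

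Among the 9 tested genes of the other immediate early regulators, 5 fell and 4 rose (all 9 called, against 71.4% of all tested genes). The largest changes, those of PHLDA1, KLF4 and BTG2, were decreases. PHLDA1 (ENSG00000139289, chr12:76025447-76033932), a pleckstrin homology-like domain gene used as an ERK readout, read 13.0, 16.0 and 16.0 CPM in shNTC and 1.85, 2.16 and 2.12 CPM in shNEDD9. It was 7.08-fold lower (log2 fold change -2.82, SE 0.20, edgeR adjusted p = 1.21e-45), next to EGR1 in size among the tested members. KLF4 (ENSG00000136826, chr9:107484852-107490482), a zinc finger factor of epithelial differentiation, stood at 152, 138 and 148 CPM in shNTC against 34.4, 35.6 and 38.2 CPM in shNEDD9. BTG2 (ENSG00000159388, chr1:203305491-203309602), an antiproliferative cofactor of mRNA deadenylation, stood at 147, 135 and 141 CPM against 39.6, 40.2 and 37.4 CPM. KLF4 was thus 4.05-fold lower (log2 fold change -2.02, SE 0.06, edgeR adjusted p = 1.15e-269) and BTG2 3.66-fold lower (log2 fold change -1.87, SE 0.06, edgeR adjusted p = 2.06e-235). ZFP36, which binds AU-rich elements and speeds mRNA decay, went from 28.1, 26.1 and 25.2 CPM to 9.73, 10.8 and 9.08 CPM, 2.71-fold lower (edgeR adjusted p = 1.12e-33). PHLDA2, an imprinted relative of PHLDA1, went from 22.9, 20.7 and 18.3 CPM to 8.90, 8.65 and 7.76 CPM, 2.48-fold lower (edgeR adjusted p = 4.66e-23). In none of these 5 genes did a shNEDD9 library reach the lowest shNTC library.

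KLF10, a repressor first described as an early target of TGF-beta, had the largest increase of this group. Its shNTC libraries held 61.3, 69.1 and 56.2 CPM and its shNEDD9 libraries 163, 162 and 166 CPM, a 2.69-fold increase (log2 fold change 1.43, SE 0.05, edgeR adjusted p = 4.69e-170). The rises of KLF6 (log2 fold change 0.22, SE 0.06), IER2 (0.24, SE 0.11) and IER5 (0.58, SE 0.21) were small, although their groups did not overlap. IER5 lay close to overlap, with 4.17, 2.83 and 4.70 CPM in shNTC against 4.70, 6.99 and 6.35 CPM in shNEDD9. The call of IER2 (edgeR adjusted p = 0.0365) was lost without shNTC replicate 1 (0.124), shNTC replicate 2 (0.132) or shNEDD9 replicate 3 (0.121), with DESeq2 (0.138) and after thinning (0.0943), and its adjusted p ranged from 0.0157 to 0.138. That of IER5 (edgeR adjusted p = 0.0108) was lost without shNEDD9 replicate 2 (0.0659), with DESeq2 (0.0820) and after thinning (0.15), within a range of 0.00324 to 0.15.

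**Figure D3:**
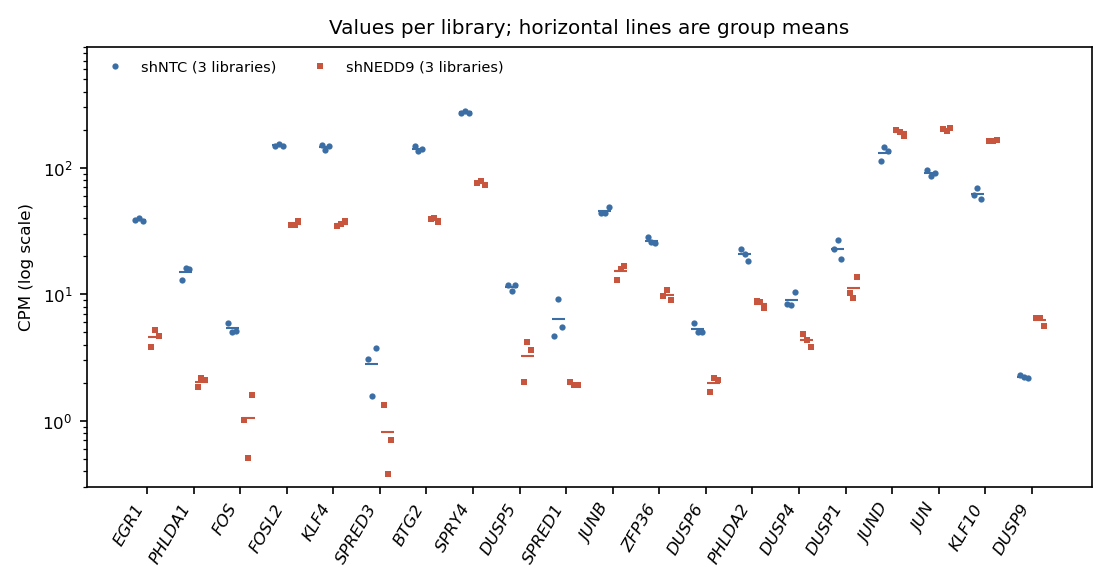
CPM in each library (log axis) of 20 members, with 3 shNTC (circles) and 3 shNEDD9 libraries (squares) per gene and the group means as lines. The first 16 genes are lower and the last 4 higher in all 3 shNEDD9 libraries, and no gene has overlapping groups. All 20 were picked from the called members, so the lack of overlap is not a separate result. Groups did not overlap in 71.8% of all tested genes.

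The inducible nuclear phosphatases DUSP1, DUSP4 and DUSP5 fell and DUSP2 was not called. DUSP5 (ENSG00000138166, chr10:110497838-110511544), which is selective for ERK, was at 11.8, 10.7 and 11.7 CPM in shNTC and at 2.01, 4.2 and 3.63 CPM in shNEDD9. It was 3.38-fold lower (log2 fold change -1.76, SE 0.19, edgeR adjusted p = 2.59e-20), with shNEDD9 replicate 1 lowest. Reads of DUSP5 may be shared with its processed pseudogenes DUSP5P1 and DUSP5P2, which had 11 counts each against 278 for DUSP5. DUSP4, which acts on ERK and JNK, was at 8.34, 8.17 and 10.3 CPM against 4.87, 4.32 and 3.83 CPM (2.12-fold lower, log2 fold change -1.08, SE 0.19, edgeR adjusted p = 2.90e-08). DUSP1, the founding MAP kinase phosphatase, read 23.0, 27.0 and 18.9 CPM in shNTC and 10.2, 9.28 and 13.8 CPM in shNEDD9 (1.95-fold lower, log2 fold change -0.97, SE 0.12, edgeR adjusted p = 1.65e-15). Neither DUSP4 nor DUSP1 overlapped between groups. DUSP2 stood at 38.1 ± 0.31 CPM and 39.1 ± 2.75 CPM (SD, n = 3 each), with overlapping groups (log2 fold change 0.03, SE 0.08, edgeR adjusted p = 0.724).

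Of the cytoplasmic phosphatases selective for ERK, DUSP6 and DUSP7 fell and DUSP9 rose. DUSP6 (ENSG00000139318, chr12:89347232-89353271), the classical negative feedback phosphatase of ERK, was at 5.92, 5.03 and 5.01 CPM in shNTC and at 1.68, 2.16 and 2.12 CPM in shNEDD9. The decrease was 2.66-fold and the groups were well apart (log2 fold change -1.41, SE 0.26, edgeR adjusted p = 9.42e-08). An antisense gene that overlaps 1875 of its exon bases had 1 count over all libraries, against 140 for DUSP6. DUSP9 (ENSG00000130829, chrX:153642492-153651326) was scarce in shNTC, at 2.29, 2.20 and 2.19 CPM, and reached 6.55, 6.49 and 5.65 CPM in shNEDD9. This 2.74-fold increase (log2 fold change 1.46, SE 0.25, edgeR adjusted p = 1.42e-08) was the largest among the tested members. DUSP7, the most abundant of the 3 per length, changed least (log2 fold change -0.46, SE 0.08). Per length, DUSP4, DUSP5, DUSP6, DUSP7 and DUSP9 together summed to 15.9, 14.1 and 14.9 CPM per kb in shNTC and to 9.21, 10.6 and 10.0 CPM per kb in shNEDD9. The share of DUSP9 in this sum was 5.37 ± 0.228% in shNTC and 22.7 ± 2.69% in shNEDD9 (SD, n = 3 each).

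The members grouped here as JNK and p38 phosphatases, DUSP8, DUSP10 and DUSP16, did not fall. DUSP1 and DUSP4, which fell, were placed in the nuclear group, although DUSP4 also acts on JNK. DUSP8 stood at 25.0, 18.2 and 20.8 CPM in shNTC and at 36.3, 42.3 and 40.6 CPM in shNEDD9, an increase of 1.81-fold (log2 fold change 0.86, SE 0.09, edgeR adjusted p = 6.23e-21). DUSP16, which also retains JNK in the cytoplasm, rose 1.44-fold, from 57.4 ± 1.77 to 82.1 ± 2.24 CPM (SD, n = 3 each, edgeR adjusted p = 6.81e-18). DUSP10 was not called (log2 fold change 0.28, SE 0.24, edgeR adjusted p = 0.275). DUSP8 may share reads with the processed pseudogene DUSP8P5, which had 74 counts against 1329 for DUSP8.

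The upstream windows of DUSP1 (chr5:172771196-172771445, minus strand) and DUSP8 (chr11:1572272-1572521, minus strand) are shown side by side because both hold TGACGTCA although DUSP1 fell and DUSP8 rose. The match, in capitals, lies at bases -125 to -118 in DUSP1 and at -118 to -111 and -74 to -67 in DUSP8.

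DUSP1: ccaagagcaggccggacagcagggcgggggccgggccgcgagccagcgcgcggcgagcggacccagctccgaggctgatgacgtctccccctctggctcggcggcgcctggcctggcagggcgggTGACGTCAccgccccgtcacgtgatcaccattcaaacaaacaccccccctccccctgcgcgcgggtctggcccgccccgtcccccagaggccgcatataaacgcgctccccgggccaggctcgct

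DUSP8: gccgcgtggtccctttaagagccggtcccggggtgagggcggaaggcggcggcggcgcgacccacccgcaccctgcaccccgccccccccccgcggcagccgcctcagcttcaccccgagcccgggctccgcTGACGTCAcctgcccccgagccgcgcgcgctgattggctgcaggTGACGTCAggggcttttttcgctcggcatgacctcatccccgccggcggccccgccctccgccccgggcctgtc

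Of the 14 atypical phosphatases, small enzymes that lack the kinase-binding domain and often have other substrates, 7 were tested. DUSP14 was lower, with a log2 fold change of -0.54 (SE 0.06, from 83.9 ± 3.37 to 57.4 ± 3.04 CPM) and so was DUSP3, with -0.36 (SE 0.06, from 73.4 ± 2.88 to 57.6 ± 1.68 CPM, SD, n = 3 each). DUSP12 rose 1.80-fold, from 17.0 ± 1.69 to 31.7 ± 1.94 CPM (log2 fold change 0.85, SE 0.10). DUSP11, DUSP19, DUSP22 and DUSP28 were not called, with log2 fold changes of -0.02, -0.01, -0.29 and 0.05. DUSP22 passed the threshold without shNTC replicate 2 (edgeR adjusted p = 0.0463) and without shNEDD9 replicate 3 (0.0418), against 0.0610 with all libraries and a range of 0.0418 to 0.302. DUSP28 shares 463 exon bases with ANKMY1 on the opposite strand.

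Of the 4 Sprouty genes SPRY4 and SPRY1 fell, SPRY2 was not called and SPRY3 was not tested. SPRY4 (ENSG00000187678, chr5:142310427-142326455), the most abundant Sprouty gene per length here, stood at 272, 282 and 271 CPM in shNTC and at 76.4, 78.8 and 72.4 CPM in shNEDD9. It was 3.62-fold lower (log2 fold change -1.86, SE 0.04, edgeR adjusted p of at most 1e-300), and the groups lay far apart. SPRY1 read 27.4, 28.3 and 26.6 CPM against 19.5, 18.6 and 18.7 CPM (log2 fold change -0.53, SE 0.10, edgeR adjusted p = 2.64e-07). SPRY2 read 5.24, 4.71 and 5.16 CPM against 3.86, 4.96 and 4.64 CPM, with overlap, and was not called (log2 fold change -0.17, SE 0.22, edgeR adjusted p = 0.493). SPRY4 made up 66.5 ± 1.07% of the summed Sprouty and SPRED level per length in shNTC and 41.8 ± 1.43% in shNEDD9 (SD, n = 3 each). Of the 25 other tested genes within 1 Mb of the start of SPRY4, 17 were lower and 2 higher, with a median log2 fold change of -0.65 (35.9% and 35.5% of all tested genes were lower and higher). Their part in the decrease of SPRY4 was not tested.

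All 3 SPRED genes, whose products bring neurofibromin to RAS, fell. SPRED1 was at 4.71, 9.11 and 5.48 CPM in shNTC and at 2.01, 1.91 and 1.92 CPM in shNEDD9 (3-fold lower, log2 fold change -1.58, SE 0.26, edgeR adjusted p = 1.29e-09). Its shNTC replicate 2 stood above the other shNTC libraries, and all 3 lay above shNEDD9. SPRED2, the most abundant SPRED gene per length, changed little, from 54.7, 56.6 and 62.9 CPM to 46.8, 49.0 and 50.7 CPM (log2 fold change -0.24, SE 0.07, edgeR adjusted p = 0.000520). SPRED3 was the scarcest per length, at 3.09, 1.57 and 3.76 CPM against 1.34, 0.382 and 0.706 CPM. Its groups came close, since shNTC replicate 2 read little more than shNEDD9 replicate 1 (3.95-fold lower, log2 fold change -1.98, SE 0.37, edgeR adjusted p = 2.04e-07). The shNEDD9 values of SPRED3 came from 18 counts in all, with replicate 2 at the floor of 3 counts. SPRED3 passed the filter through its shNTC libraries alone. Of the members with an AP-1 site in the promoter window, FOSL2, SPRED2 and SPRED3 fell and SPRY3 was not tested. The SPRED3 window (chr19:38389541-38389790, plus strand) is shown as the AP-1 site of the most changed SPRED gene, with the match at bases -60 to -54 in capitals.

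SPRED3: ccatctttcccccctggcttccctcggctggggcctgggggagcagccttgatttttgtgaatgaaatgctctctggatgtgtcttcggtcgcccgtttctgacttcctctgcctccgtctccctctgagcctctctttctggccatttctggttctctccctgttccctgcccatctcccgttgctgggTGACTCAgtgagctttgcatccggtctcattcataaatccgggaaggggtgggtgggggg

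The 14 members below the filter had at most 50 counts over the 6 libraries. DUSP27, which encodes a phosphatase-like protein without catalytic activity, had 0 counts in shNTC and 14, 10 and 8 counts in shNEDD9 (1.48 ± 0.792 CPM, SD, n = 3). This is at least 2.46-fold higher than the floor of 3 counts per shNTC library (mean 0.599 CPM). IER3 had 0 counts in shNTC and 4 in shNEDD9. FOSL1 had 10 and 6 counts (ratio per total count 0.435, exact 95% interval 0.13 to 1.32) and FOSB 8 and 13 (1.18, interval 0.453 to 3.28), so no difference was detectable at this depth. The same held for DUSP15 (22 and 18 counts), DUSP18 (24 and 26) and DUSP23 (5 and 6). SPRY3 had 7 and 2 counts (ratio 0.207, interval 0.0210 to 1.09), DUSP13 and DUSP26 had 2 counts each in shNTC and 0 in shNEDD9, and DUSP21 had 0 counts throughout. These intervals cover counting error only.

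Levels per length reordered the members. JUND was the most abundant in both groups, at 70.4 CPM per kb in shNTC and 102 CPM per kb in shNEDD9. BTG2, SPRY4 and KLF4 followed in shNTC, at 51.2, 41.9 and 39.8 CPM per kb. JUN and KLF10 followed in shNEDD9, at 56.9 and 40.9 CPM per kb, where BTG2 ranked 8th, SPRY4 9th and KLF4 12th among the 52 members.

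**Figure D4:**
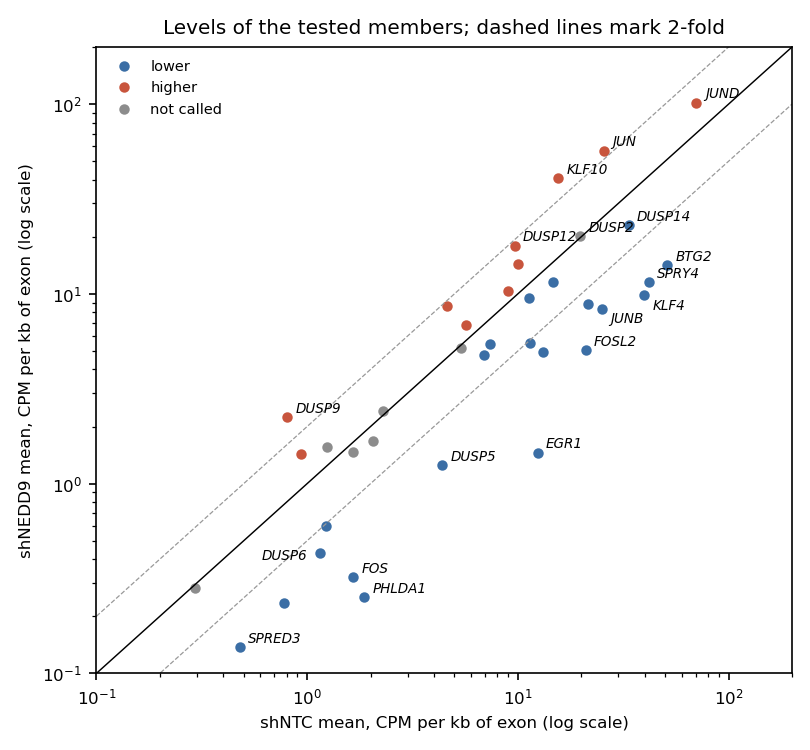
Mean level of the 38 tested members in shNTC (x axis) and shNEDD9 (y axis), in CPM per kb of exon on log axes, with the line of equality and dashed lines at 2-fold. EGR1 lies farthest below the line, and JUN, KLF10 and DUSP9 lie above the upper dashed line.

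The counts over lists of related genes stand beside 71.4% called, 35.5% higher and 35.9% lower among all tested genes. Of 24 genes from RAS to the ribosomal S6 kinases, 13 fell and 5 rose (75.0% called), and none reached a 2-fold change (median log2 fold change -0.21). The largest were LAMTOR3, a MEK-ERK scaffold (-0.88, SE 0.07), GAB1, a docking adaptor (-0.83, SE 0.17), the GTPase gene RRAS (-0.69, SE 0.16) and RPS6KA2, a kinase activated by ERK (-0.58, SE 0.08). MAPK3, which encodes ERK1 and was picked out after its value was seen, was not called (log2 fold change -0.08, SE 0.09, edgeR adjusted p = 0.447). Of 12 factors and kinases that act on immediate early promoters, 8 fell and 1 rose (75.0% called, median -0.27). Among them were the ternary complex factor genes ELK3 (log2 fold change -1.36, SE 0.15, 15.4 ± 0.846 to 5.89 ± 1.10 CPM) and ELK4 (-0.69, SE 0.06), and RPS6KA4 (-1.05, SE 0.04) and RPS6KA5 (-0.71, SE 0.10), kinases of histone H3 and CREB.

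Immediate early genes outside the 52 went both ways. Of 23 tested, 7 rose (30.4%, against 35.5% of all tested genes) and 10 fell (43.5%, against 35.9%), with a median log2 fold change of -0.14. The largest rises were those of ATF3, a stress-induced bZIP factor (log2 fold change 3.22, SE 0.11, 6.8 ± 0.521 to 64.4 ± 1.68 CPM), and CEBPB (1.99, SE 0.08). The largest decreases were those of CTGF, a matricellular protein gene (-2.63, SE 0.41), and the small MAF factor gene MAFF (-1.51, SE 0.16). CTGF was scarce (3.05 ± 0.734 to 0.510 ± 0.224 CPM), with 4, 2 and 6 counts in shNEDD9 replicates 1 to 3. Of 10 other transcripts used as ERK readouts, 5 fell and 3 rose (80.0% called, against 71.4% of all tested genes, median -0.36). SPSB1 (-1.57, SE 0.16) and the receptor kinase gene EPHA2 (-1.41, SE 0.28) were lower, and the chromatin protein gene HMGA1 (1.29, SE 0.04) and EPHA4 (1.17, SE 0.13) higher.

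Of 10 JNK and p38 kinase genes, 3 rose and 5 fell (80.0% called, against 71.4% of all tested genes, median log2 fold change -0.11). MAP2K6, which encodes a kinase that activates p38, rose by 2.32 (SE 0.07), from 21.9 ± 1.56 to 107 ± 5.65 CPM (SD, n = 3 each), while MAPK11 (-0.58, SE 0.08), MAP2K4 (-0.50, SE 0.07) and MAPK14 (-0.35, SE 0.05) fell. Of 7 further AP-1 partner genes, 2 rose and 5 fell (all 7 called, median -0.53). JDP2, which encodes a repressor that pairs with JUN, rose by 2.13 (SE 0.09), from 13.1 ± 0.393 to 57.6 ± 2.58 CPM, and the MAF genes MAFG (-0.88, SE 0.07), MAFK (-0.82, SE 0.10) and MAF (-0.70, SE 0.20) fell. Of 6 relatives of ZFP36 and BTG2, 1 rose and 5 fell (all 6 called, median -0.23). BTG3 rose by 1.95 (SE 0.09), in contrast to the decrease of BTG2, and TOB2 (-0.68, SE 0.06), ZFP36L1 (-0.36, SE 0.07) and TOB1 (-0.24, SE 0.06) fell.

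**Figure D5:**
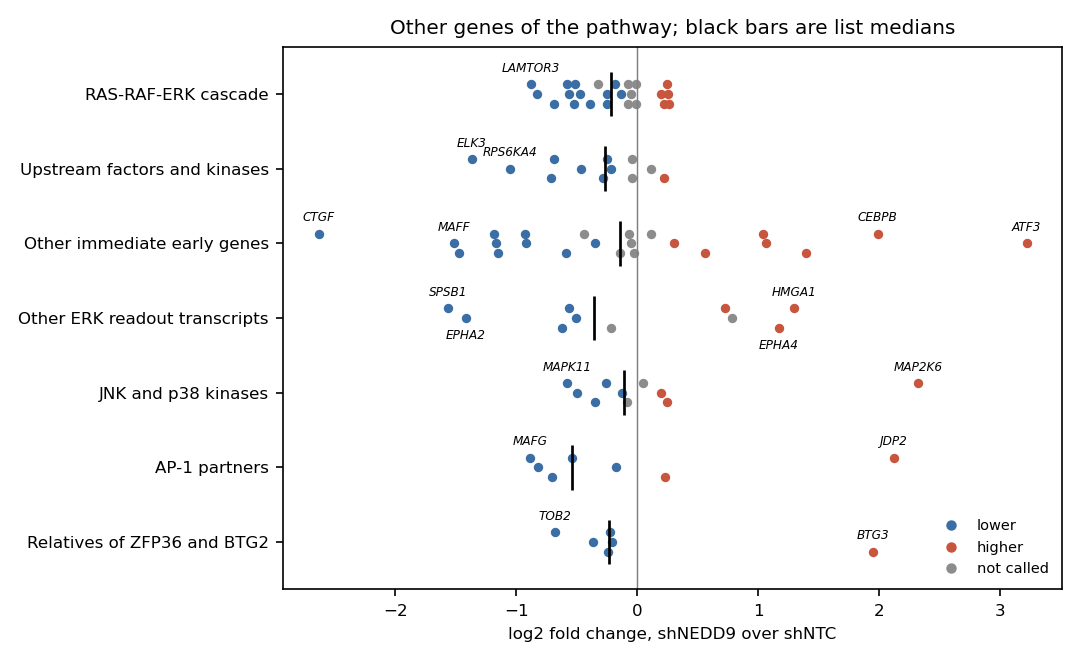
Log2 fold change of each tested gene (points) in 7 lists of related genes, with the list median as a black bar. Medians lie between -0.53 and -0.11, while single genes reach 3.22 (ATF3) and -2.63 (CTGF).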

How the data were processed

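RNA-seq counts of 6 VCaP libraries were used. The deposited table holds whole-number read counts per gene that the authors did not normalise. Tools in the submitters' processing notes are STAR 2.5.3a, Subread 1.6.2 with featureCounts, cutadapt 1.9 and FastQC 0.11.5, and the builds hg19 and GRCh38 are named without their roles. All 58735 identifiers occur in GENCODE 29 (GRCh38), which gave coordinates, gene types and exon lengths (all annotated exons merged). An empty row was left out.

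shNEDD9 was compared with shNTC by edgeR 4.0.16 in R 4.3.3 (TMM factors, filterByExpr with a minimum count of 10, glmQLFit with robust estimation, glmQLFTest). Benjamini-Hochberg adjustment ran over all 13958 tested genes, with a threshold of 0.05. SE is the absolute unmoderated log2 fold change over the square root of F. CPM use the TMM factors. Ratios for untested members carry exact conditional binomial intervals. The procedure was tested on simulated data. Because nothing in the labels describes separate cultures beyond calling the replicates biological, p-values measure the spread among libraries, which could be technical.

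Alternative settings were library totals alone, upper-quartile or RLE factors, no count filter, a mean of at least 1 CPM, DESeq2 1.42.0, limma-voom (limma 3.58.1), a replicate block, exclusion of mitochondrial and small RNA genes, thinning to the smallest total, and leaving out each library. Members and lists were chosen with earlier results of these data known. All 52 members could be named. Library values were given for members with at least a 2-fold change and 1 CPM in a group and for selected regulators, and each related list gave up to 4 changed genes of largest change.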

Additional observations from a re-analysis of the deposited data

How the results depend on the processing

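Over 16 alternatives, 583 of 606 member results kept their direction and their side of the threshold, 8 lost the call (IER2 and IER5), 2 gained it (DUSP22) and 13 changed sign. The sign changes were in 5 members that were called neither as reported nor in those settings. Their log2 fold changes after thinning were 0.20 (SPRY2), 0.022 (DUSP11) and -0.036 (DUSP28), and that of DUSP19 was 0.0053 with library totals alone and 0.010 without the count filter. Leaving out 1 library at a time gave -0.023 to 0.085 for DUSP2, -0.090 to 0.021 for DUSP11, -0.20 to 0.12 for DUSP19 and -0.079 to 0.18 for DUSP28. The count of lower members ranged from 20 to 23 (21 as reported) and that of higher members from 8 to 11 (10 as reported). Leaving out 1 library at a time gave 21 to 22 lower and 9 to 10 higher members. Over all genes the same gave 4603 to 4937 higher and 4670 to 4997 lower. Without the count filter 51 members were tested, and EGR3, EGR4 (lower) and DUSP27 (higher) were also called. The largest move of a called value was that of FOS, with a log2 fold change of -2.88 without shNEDD9 replicate 3. The titles number the replicates in both groups, but same-numbered libraries did not deviate together (r of -0.03, 0.01 and 0.03 over 9972 genes). With the replicate number as a block, 10 members were higher and 21 lower, and over all genes 4881 were higher and 4953 lower. Counts of replicates in a group were more unlike than sampling noise alone makes them (chi-square per degree of freedom 1.14 to 1.20). The common coefficient of variation beyond sampling noise, fitted by edgeR, was 1.65%. Neither value can tell separate cultures from repeat libraries of the same culture. Each library was counted as 1 replicate. Depth limits the 14 untested members most.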

Other observations

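Neighbours within 1 Mb of the start of a member, other than the member itself, were counted for all 52 members, and 6 neighbourhoods were picked out after their values were seen. Among all tested genes 35.5% were higher and 35.9% lower, and no neighbourhood was tested against these shares. Near EGR1, which fell by 3.06 on the log2 scale, 13 of 25 tested genes were higher and 4 lower (median log2 fold change 0.25). Near DUSP5, which fell by 1.76, 7 of 9 were higher and 0 lower (median 0.35). Near FOSL2, which fell, 8 of 16 were higher and 3 lower (median 0.25). Near DUSP16, which rose, 11 of 17 were lower and 3 higher (median -0.56). Near SPRY4 and BTG2, which fell, 17 of 25 and 10 of 20 were lower (medians -0.65 and -0.31).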
